A study of Mus musculus with 12 samples.

Results

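Of 19935 genes measured in mouse colon epithelial cells, 28 formed a set for cholesterol and fatty acid synthesis, and all 28 were measured. A gene belonged to the set if its symbol was on a list of pathway genes, and its value was the mean of the array probe sets that carry that single symbol. The 28 genes had 31 probe sets, with 2 each for Idi1, Fdft1 and Acaca. The set comprised 6 genes of the mevalonate arm (Hmgcs1, Mvk, Pmvk, Mvd, Idi1 and Fdps), 3 of the squalene and lanosterol steps (Fdft1, Sqle and Lss) and 8 of the steps from lanosterol to cholesterol (Cyp51, Tm7sf2, Msmo1, Nsdhl, Hsd17b7, Ebp, Sc5d and Dhcr7). A further 5 genes act in sterol sensing and transport (Insig1, Srebf1, Srebf2, Scap and Stard4), and 6 in fatty acid synthesis (Acly, Acaca, Fasn, Scd1, Scd2 and Elovl6).

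The arrays came from male mice aged 8 to 10 weeks, either transgenic for Villin-Claudin-2 (TG) or wild-type littermates (WT). Claudin-2 sits in tight junctions between epithelial cells, where it lets small cations and water pass, and villin, for which the transgene is named, is a structural protein of the brush border. Mice of both genotypes drank either water or dextran sodium sulfate (DSS, an agent that injures the colon epithelium) at 4% w/v for 10 days. The 4 groups held 3 arrays each, which are called WT water, TG water, WT DSS and TG DSS 1 to 3 after the replicate numbers in the labels. No label states that every array came from a separate mouse. The p-values therefore rest on the spread among samples within groups, pooled over the 4 groups for each gene, and part of that spread may be technical. The spread in WT DSS thus enters the standard error (SE) of every comparison, those without WT DSS included. For Acly the SD was 0.60 in WT DSS, against 0.07 in WT water, 0.02 in TG water and 0.19 in TG DSS.

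Cells build cholesterol from acetyl-CoA by way of mevalonate, the isoprenoid farnesyl diphosphate, squalene and lanosterol, and they build fatty acids from the same acetyl-CoA. Genes of both routes are textbook targets of the SREBP transcription factors, membrane proteins that SCAP escorts out of the endoplasmic reticulum when sterols are low and that INSIG proteins hold back when sterols are high. In the gut lining these routes supply membrane lipid for cells that are renewed continuously.

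Promoters of 4 of the genes are printed here to show the sequence before and around their starts. SREBP target promoters are known for a sterol element next to boxes for the factors NF-Y and Sp1. RefSeq promoters (GRCm38.p6, 250 bases before to 50 after the start) were held for 22 of the 28 genes, 4 of them with several, which gave 28 promoters. The sterol element was searched as TCACNCCAC, the NF-Y box as CCAAT and the Sp1 box as GGGCGG, each on both strands. Hmgcs1 is shown because its promoter was the only one of the 28 with a match to TCACNCCAC. The promoters of Acly, Tm7sf2 and Mvk are shown because these genes led the comparison of DSS with water in WT among those with a single promoter. Capitals mark the sterol element and the NF-Y boxes (CCAAT, or ATTGG for the other strand), and the Sp1 boxes are left in lower case. The windows are chr13:119690101-119690400 (plus strand) for Hmgcs1, chr11:100527951-100528250 (minus strand) for Acly, chr19:6067801-6068100 (minus strand) for Tm7sf2 and chr5:114444019-114444318 (plus strand) for Mvk, each read 5′ to 3′ along the gene.
Hmgcs1: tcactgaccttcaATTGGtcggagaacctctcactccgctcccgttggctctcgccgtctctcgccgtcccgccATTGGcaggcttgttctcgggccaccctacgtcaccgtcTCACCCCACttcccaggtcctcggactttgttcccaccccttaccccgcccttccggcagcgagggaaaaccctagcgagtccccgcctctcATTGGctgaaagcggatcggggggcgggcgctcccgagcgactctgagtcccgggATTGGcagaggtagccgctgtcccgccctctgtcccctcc
Acly: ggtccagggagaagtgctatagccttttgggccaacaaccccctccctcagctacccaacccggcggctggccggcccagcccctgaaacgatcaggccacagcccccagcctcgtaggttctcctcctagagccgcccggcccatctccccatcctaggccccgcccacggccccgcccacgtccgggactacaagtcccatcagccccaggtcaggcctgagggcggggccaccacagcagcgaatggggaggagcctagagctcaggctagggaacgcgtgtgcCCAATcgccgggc
Tm7sf2: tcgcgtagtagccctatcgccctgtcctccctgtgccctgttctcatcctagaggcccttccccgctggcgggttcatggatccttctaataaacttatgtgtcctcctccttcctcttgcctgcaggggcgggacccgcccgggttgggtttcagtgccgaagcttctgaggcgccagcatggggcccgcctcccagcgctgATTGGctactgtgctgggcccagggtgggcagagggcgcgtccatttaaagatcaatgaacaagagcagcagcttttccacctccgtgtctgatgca
Mvk: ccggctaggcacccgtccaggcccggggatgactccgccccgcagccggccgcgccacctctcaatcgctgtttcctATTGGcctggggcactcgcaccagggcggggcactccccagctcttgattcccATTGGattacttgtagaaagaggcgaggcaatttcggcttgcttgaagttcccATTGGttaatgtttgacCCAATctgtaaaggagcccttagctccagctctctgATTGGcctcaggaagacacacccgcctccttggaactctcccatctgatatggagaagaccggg

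The Hmgcs1 promoter held 4 NF-Y boxes beside its sterol element, and that of Mvk held 5. Acly and Tm7sf2 had 1 NF-Y box each, with 4 and 2 Sp1 boxes. Over the set, NF-Y boxes stood in 20 of 28 promoters (71.4%), against 37.4% of 32851 promoters in the table. Sp1 boxes stood in 21 of 28 (75.0%), against 35.7%. The sterol element stood in 1 of 28 (3.6%), against 1.24%, and the E-box CACGTG, which SREBP proteins can also bind, in 6 of 28 (21.4%), against 7.15%. The windows of Scap overlap, so that the same E-box and Sp1 box were counted in more than 1 promoter. Counted by gene, NF-Y boxes stood in 19 of 22 genes, Sp1 boxes in 18 and the E-box in 5. The promoters of the whole table were not counted by gene. These shares describe letters in a window of fixed length and are no evidence of binding.

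The deposited values are log2 signals centred on each probe set's median over the 12 arrays. They give differences between arrays and no absolute level, so the presence of a gene or of a tissue marker could not be checked. In the WT DSS group the 3 arrays stood apart from each other in genes that mark epithelial cells, other cells and the cell cycle. WT DSS 2 had a median of -2.08 over 15 pan-epithelial markers and 4.08 over 9 neutrophil markers, while WT DSS 3 read 0.02 and 0.32 and WT DSS 1 read -0.08 and 2.39. Over 10 fibroblast markers the 3 arrays read 1.08, 2.26 and -0.26, and over 17 cell cycle genes 0.00, -0.96 and -1.51. The TG DSS arrays lay between -0.17 and 0.03 for the pan-epithelial list and between 0.06 and 0.34 for the cell cycle list. The part of cell composition in the results below was not tested. In bulk samples like these, fewer cells of a type and less RNA per cell cannot be told apart.

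**Figure D1:**
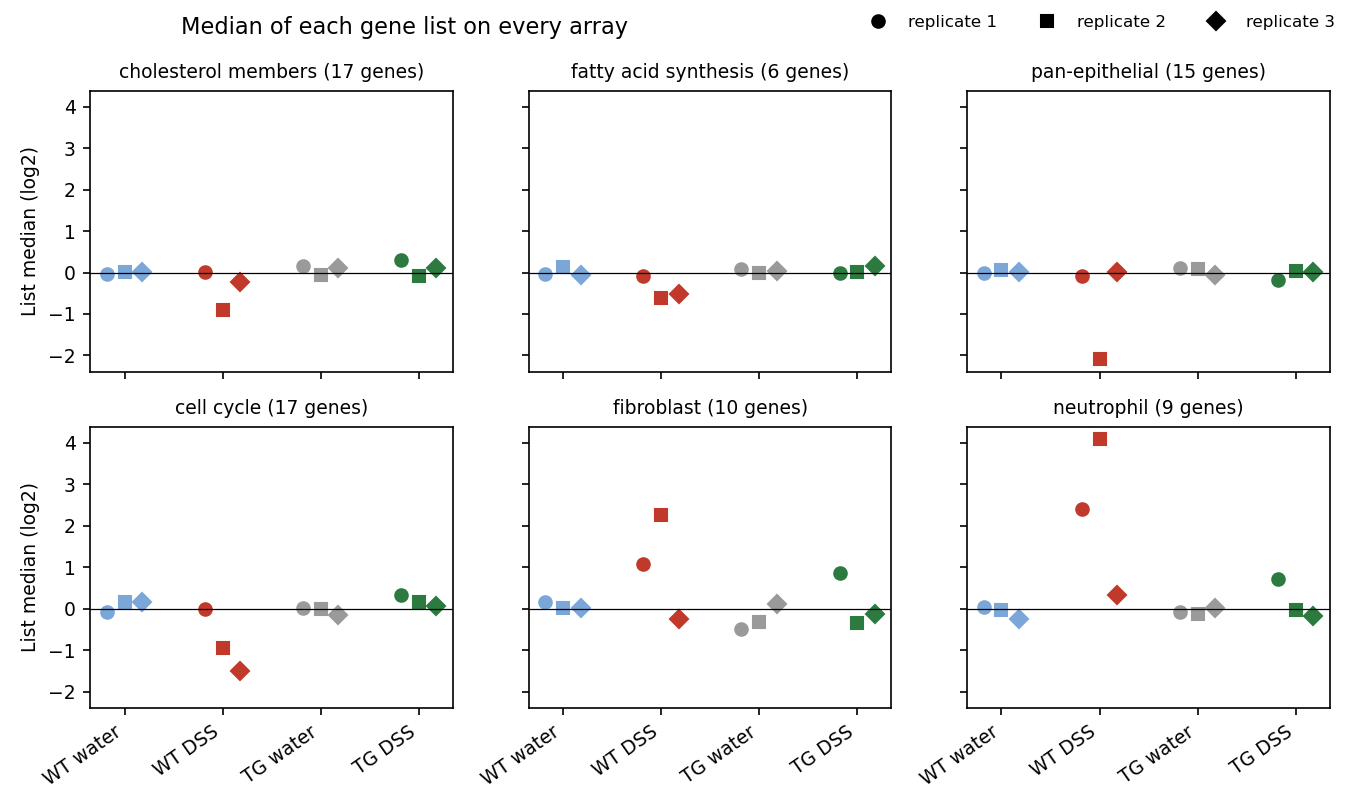
Median log2 value of 6 gene lists on each of the 12 arrays, with 1 panel per list, colours for the groups and marker shapes for the replicates. The pan-epithelial median drops to -2.08 on WT DSS 2 alone, the cell cycle median to -1.51 on WT DSS 3, and the cholesterol gene median to -0.90 on WT DSS 2.

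In WT mice, DSS was set against water first, which asks how injury bears on lipid synthesis genes in the normal epithelium. The fitted difference was below 0 for 27 of the 28 genes, with Elovl6 as the exception, and for 11849 of all 19935 genes. The differences of the 28 genes ran from -1.08 to 0.39, with a median of -0.36, against -0.04 over all genes. The largest were those of Tm7sf2, Acly, Scd1 and Dhcr7. Lower values were not particular to the set, since all 15 pan-epithelial and all 17 cell cycle genes were below 0. The median difference was -0.79 over 15 pan-epithelial markers, -0.76 over 11 absorptive colonocyte genes and -0.81 over 17 cell cycle genes. Over the fibroblast, endothelial, macrophage and neutrophil markers it was 1.00, 1.18, 1.10 and 2.34. Not all lists of other cells were higher, with -0.29 over the smooth muscle and -0.19 over the adipocyte markers. With limma, 0 of the 28 genes passed an adjusted p of 0.05 over all genes (two-sided), where 0.171% of all genes did, and the lowest adjusted p in the set was 0.107. At an unadjusted p under 0.05 there were 7 genes (25%), all lower under DSS, against 9.55% of all genes lower and 5.7% higher. The 3 DSS arrays lay below the 3 water arrays in 9 genes (32.1%), against 10.7% of all genes in that direction, and above them in 0 genes, against 5.45%.

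**Figure D2:**
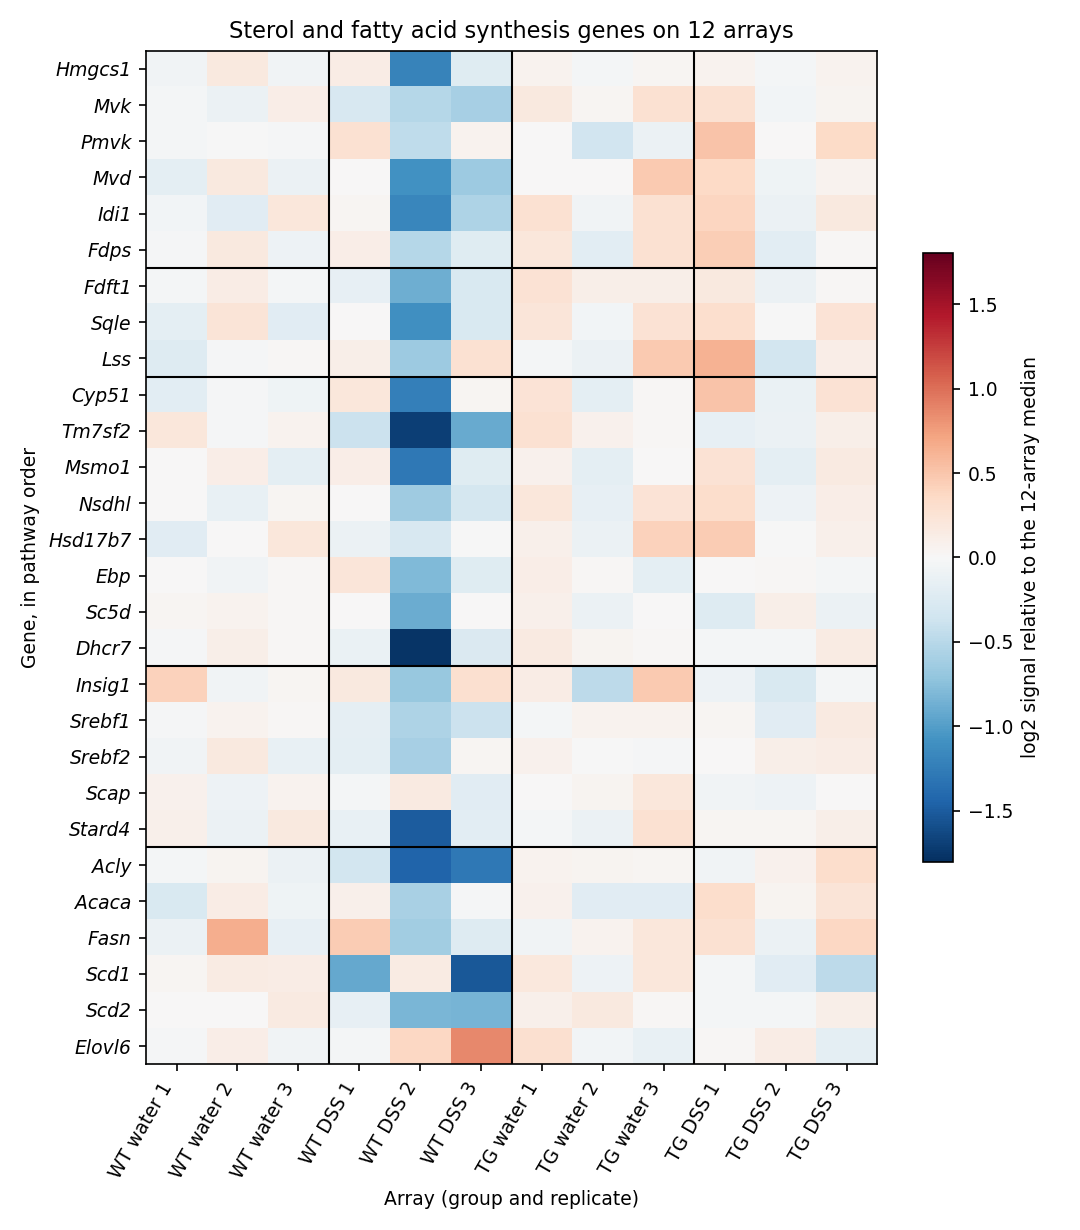
Heat map of the log2 signal of the 28 genes (rows, in pathway order) on the 12 arrays (columns, by group), relative to each probe set's median. WT DSS 2 is the lowest array for 23 genes and WT DSS 3 for 4, while the arrays of the other 3 groups range from -0.47 to 0.65. These counts were not taken over all genes, over which WT DSS 2 also has the widest spread (SD 0.87).

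Most of the spread in the set lay in those 3 WT DSS arrays. On the 9 other arrays, 248 of 252 values were within 0.5 of 0. In WT DSS, 32 of 84 values were further than 0.5 from 0. The wider spread was not particular to the set. Over all genes the SD was 0.36, 0.87 and 0.45 on WT DSS 1, 2 and 3, and 0.14 to 0.27 on the 9 other arrays. The share of all genes beyond 0.5 was not computed. Relative to -0.5, 17 genes were below it on WT DSS 2 alone, and 6 on both WT DSS 2 and 3: Mvk, Mvd, Idi1, Tm7sf2, Acly and Scd2. Scd1 was below it on WT DSS 1 and 3, and Pmvk, Hsd17b7, Scap and Elovl6 on none. WT DSS 1 had a median of 0.00 over the 28 genes, against -0.74 and -0.22 on WT DSS 2 and 3. On WT DSS 1, 2 and 3 the pan-epithelial medians were -0.08, -2.08 and 0.02. The neutrophil medians were 2.39, 4.08 and 0.32, and the fibroblast medians 1.08, 2.26 and -0.26. The part of cell composition in these medians was not tested.

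In the mevalonate arm, the median difference for DSS in WT was -0.45, and all 6 genes were below 0. Mvk, mevalonate kinase, read -0.03, -0.11 and 0.12 on the WT water arrays and -0.29, -0.52 and -0.60 on the WT DSS arrays. The groups of Mvk did not overlap, and all 3 DSS arrays were low. Its difference was -0.46 (SE 0.12, limma adjusted p = 0.131), which is 1.38-fold lower. Mvd, the decarboxylase that makes isopentenyl diphosphate, read -0.18, 0.17 and -0.11 on water and 0.01, -1.09 and -0.65 under DSS. Idi1, the isomerase of isopentenyl diphosphate, read -0.05, -0.21 and 0.20 on water and 0.04, -1.17 and -0.55 under DSS. In both genes WT DSS 2 and 3 were low, while WT DSS 1 lay inside the range of the water arrays, and the difference was -0.54 with a limma adjusted p of 0.35 and 0.366. The 2 probe sets of Idi1 read alike on these arrays, at -1.18 and -1.16 on WT DSS 2. Hmgcs1, HMG-CoA synthase and the gene with the sterol element printed above, was low on WT DSS 2 alone, at -1.20 against 0.13 and -0.22, with a difference of -0.45 (SE 0.26). Fdps, farnesyl diphosphate synthase, read 0.12, -0.51 and -0.22, and Pmvk, phosphomevalonate kinase, 0.27, -0.46 and 0.07 on the same arrays. Pmvk had the smallest difference of the arm, at -0.02 (SE 0.19).

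The squalene and lanosterol steps had a median difference of -0.41. Fdft1, squalene synthase, read -0.04, 0.13 and -0.03 on water and -0.15, -0.88 and -0.27 under DSS in WT. The groups did not overlap, with WT DSS 2 far below the others, and the difference was -0.45 (SE 0.17, limma adjusted p = 0.254). Sqle, squalene epoxidase and a rate-limiting enzyme of the route, read 0.01, -1.11 and -0.28 on the WT DSS arrays, of which WT DSS 1 lay within its water range of -0.21 to 0.23. Lss, lanosterol synthase, read -0.23, -0.02 and 0.02 on water and 0.10, -0.65 and 0.27 under DSS, and differed by -0.02 (SE 0.28). Its WT DSS 1 and 3 arrays lay above all water arrays and WT DSS 2 below them.

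From lanosterol to cholesterol, the median difference was -0.31 and all 8 genes were below 0. Tm7sf2, a sterol reductase, had the largest difference of the 28 genes. It read 0.20, -0.02 and 0.07 on water and -0.39, -1.70 and -0.91 under DSS in WT. All 3 DSS arrays were below all water arrays, and the difference was -1.08 (SE 0.26, limma adjusted p = 0.107), which is 2.11-fold lower. Dhcr7, the reductase of the last step, read -0.02, 0.10 and 0.02 on water and -0.12, -1.77 and -0.26 under DSS. Its groups did not overlap either, but WT DSS 2 carried most of the difference of -0.75 (SE 0.34, limma adjusted p = 0.333). Cyp51, the lanosterol demethylase, read 0.20, -1.23 and 0.03 on the WT DSS arrays. Msmo1, a methylsterol oxidase, read 0.12, -1.29 and -0.22. Ebp, a sterol isomerase, read 0.22, -0.79 and -0.22. These 3 genes were low on WT DSS 2, and WT DSS 1 was the highest of their 3 WT DSS arrays. Sc5d, the lathosterol desaturase, read 0.00, -0.90 and 0.00, and its groups were separated by hundredths only, since the lowest water array read 0.02. Nsdhl, a sterol dehydrogenase, read 0.00, -0.64 and -0.32, and Hsd17b7, the ketoreductase that acts after it, -0.11, -0.29 and -0.01. Hsd17b7 had the smallest difference of these steps, at -0.14 (SE 0.17).

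Among the genes of sterol sensing and transport the median difference was -0.23, with none of the 5 above 0. Srebf1, which encodes the SREBP isoforms most tied to fatty acid synthesis, read -0.02, 0.07 and 0.02 on water and -0.16, -0.56 and -0.39 under DSS in WT. Its groups did not overlap, and the difference was -0.39 (SE 0.12, limma adjusted p = 0.177). Srebf2, which encodes the SREBP most tied to cholesterol synthesis, read -0.17, -0.60 and 0.03 under DSS, against -0.13 to 0.17 on water. Stard4, a cytosolic sterol carrier, read 0.09, -0.11 and 0.17 on water and -0.14, -1.50 and -0.19 under DSS, with a difference of -0.66 (SE 0.30). The groups of Stard4 did not overlap, but its WT DSS 1 value and its lowest water value differed by little. Insig1, which retains the SREBP escort in the endoplasmic reticulum and is itself an SREBP target, read 0.18, -0.68 and 0.29 under DSS. Scap, the escort, read -0.03, 0.16 and -0.20, the only gene of the 5 that was not at its lowest on WT DSS 2, and differed by -0.04 (SE 0.10).

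Fatty acid synthesis had a median of -0.46, next to -0.45 in the mevalonate arm, and also the one gene above 0. Acly, ATP-citrate lyase, which supplies the acetyl-CoA of both routes, read -0.03, 0.05 and -0.10 on water and -0.33, -1.44 and -1.28 under DSS in WT. The groups did not overlap. The difference of Acly was -0.99 (SE 0.24, 95% interval -1.52 to -0.46, limma adjusted p = 0.107), which is 1.99-fold lower. Scd2, a stearoyl-CoA desaturase, read 0.00, 0.00 and 0.16 on water and -0.15, -0.82 and -0.83 under DSS, also without overlap. Its difference was -0.65 (SE 0.16, limma adjusted p = 0.117). Scd1, the other desaturase, followed another order of arrays, with 0.03, 0.15 and 0.13 on water and -0.92, 0.15 and -1.53 under DSS. Scd1 was low on WT DSS 1 and 3 and at the top of the water range on WT DSS 2, and its difference was -0.87 (SE 0.33, limma adjusted p = 0.262). Elovl6, an elongase of long-chain fatty acids, read -0.02, 0.12 and -0.07 on water and -0.04, 0.37 and 0.86 under DSS, which made it highest where Scd1 and Mvk were lowest. The difference of Elovl6 was 0.39 (SE 0.20, limma adjusted p = 0.393).

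Acaca and Fasn, the carboxylase and the synthase at the core of fatty acid synthesis, differed by less than Acly and the desaturases. Acaca read 0.09, -0.59 and -0.02 under DSS in WT and differed by -0.10 (SE 0.18). Its 2 probe sets were less alike than those of Idi1, with -0.69 and -0.49 on WT DSS 2 and 0.07 and 0.39 on TG DSS 3. Fasn read 0.45, -0.63 and -0.23 under DSS and -0.10, 0.65 and -0.15 on water, with a difference of -0.27 (SE 0.28). Fasn therefore had 1 high array in each of these groups. The high water array, WT water 2, also had the highest median over 13 adipocyte markers, at 0.65, where the 11 other arrays lay between -0.22 and 0.20. The part of fat cells in that Fasn value was not tested.

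**Figure D3:**
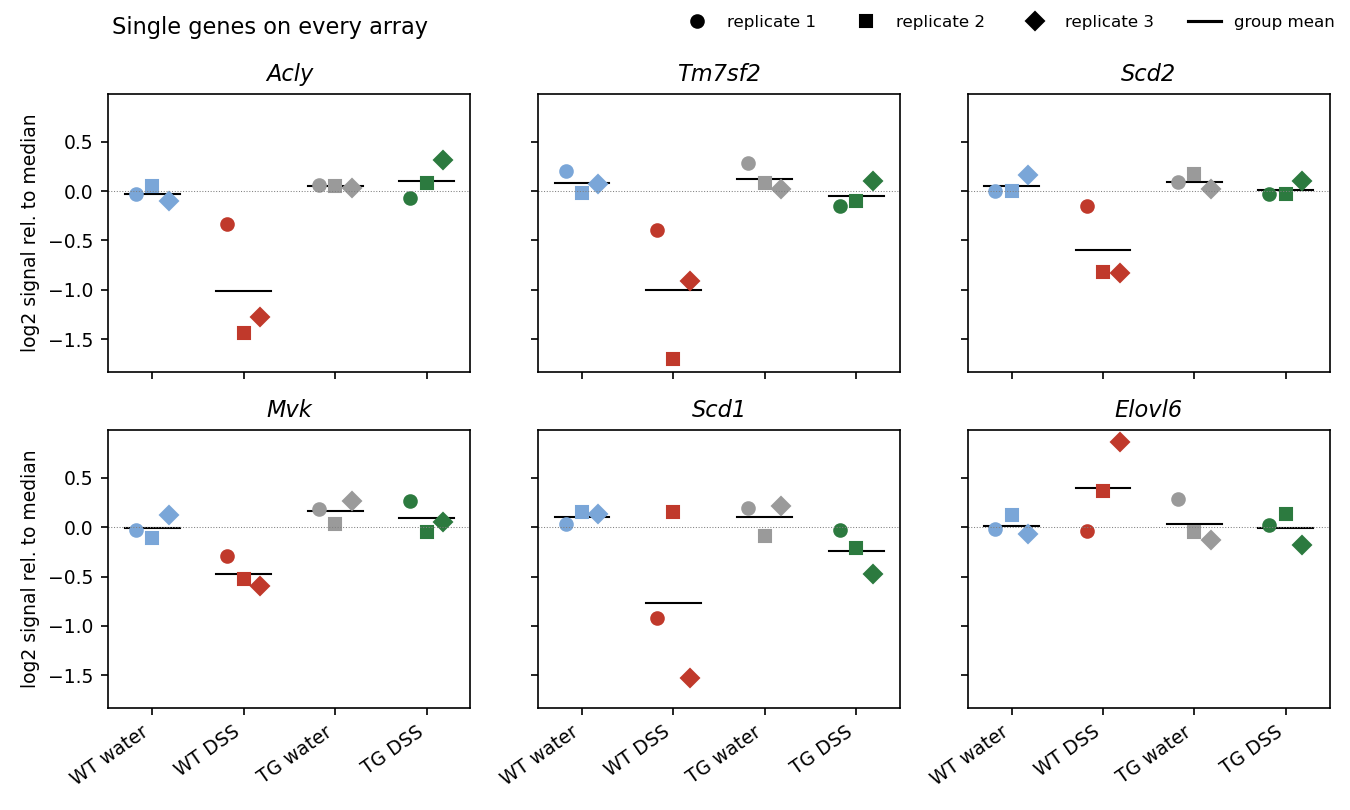
Log2 signal of Acly, Tm7sf2, Scd2, Mvk, Scd1 and Elovl6 on every array, by group, with marker shapes for the replicates and a line at each group mean. Acly is at -1.44 and -1.28 on WT DSS 2 and 3 and at -0.33 on WT DSS 1, and Elovl6 reaches 0.86 on WT DSS 3.

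These values were recomputed without each WT DSS array. Without WT DSS 2, the array with the low epithelial and high neutrophil medians, the median over the 28 genes was -0.08, and 21 genes were below 0. This sign count was not taken over all genes. Then 1 of the 28 genes passed with limma, against 0.461% of all genes in that fit, and 7 had an unadjusted p under 0.05, against 13.2%. The gene that passed was Scd1, which fell by 1.33 (log2 difference -1.33, SE 0.18, limma adjusted p = 0.0305). Without WT DSS 1 the median was -0.53 and 5 of the 28 genes passed, all lower under DSS: Mvk, Tm7sf2, Srebf1, Acly and Scd2. Calls also became more frequent over all genes in that fit, of which 4.61% passed in either direction, and 20.6% had an unadjusted p under 0.05, against 16 of the 28. Acly then had a difference of -1.33 (SE 0.12, limma adjusted p = 0.000513), and Scd2 of -0.88 (SE 0.09, adjusted p = 0.00125). Without WT DSS 3 the median was -0.41 and 0 of the 28 genes passed with limma, against 2.88% of all genes. In that fit 9 had an unadjusted p under 0.05, against 23.5% of all genes. The differences of Acly and Tm7sf2 were below 0 in all 3 cases: Acly at -0.78 and Tm7sf2 at -0.73 without WT DSS 2, and -0.86 and -1.12 without WT DSS 3. Each of these fits rested on 2 WT DSS arrays.

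In TG mice, DSS was set against water in the same way. The 28 genes split evenly, 14 above and 14 below 0, with differences from -0.34 to 0.44 and a median of 0.00, against -0.01 over all genes. Of all genes, 9209 were above and 10726 below 0. The median was -0.08 over the pan-epithelial list, -0.39 over the absorptive colonocyte list and 0.24 over the cell cycle list. Over the fibroblast and neutrophil lists it was 0.37 and 0.25. With limma, 0 of the 28 genes passed, against 0% of all genes, and 1 (3.57%) had an unadjusted p under 0.05, against 2.38% of all genes. That gene was Pmvk, with 0.01, -0.34 and -0.11 on TG water and 0.52, 0.01 and 0.34 on TG DSS. Its groups met at TG water 1 and TG DSS 2, and the difference was 0.44 (SE 0.19, limma adjusted p = 1). Scap was the 1 gene whose DSS arrays were all lower, against 6.64% of all genes in that direction, with 0.00, 0.05 and 0.21 on water and -0.06, -0.09 and 0.00 under DSS. Those 2 groups were apart by less than the printed digits. No gene of the set had all TG DSS arrays higher, which held for 6.76% of all genes.

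The genes that led in WT were near 0 in TG. Acly read 0.06, 0.05 and 0.03 on TG water and -0.07, 0.08 and 0.31 on TG DSS. Its difference was 0.06 (SE 0.24, 95% interval -0.47 to 0.58). Tm7sf2 read 0.28, 0.08 and 0.02 on TG water and -0.15, -0.10 and 0.10 on TG DSS. Its groups overlapped, with a difference of -0.18 (SE 0.26, 95% interval -0.75 to 0.40). Scd2 differed by -0.08 (95% interval -0.44 to 0.28) and Mvk by -0.07 (95% interval -0.33 to 0.20). The WT intervals of these genes reached up to -0.46 for Acly, -0.50 for Tm7sf2, -0.29 for Scd2 and -0.20 for Mvk. Each overlapped its TG interval, for Acly by hundredths only. The genotypes are compared by test below. Scd1 had the lowest difference of the set in TG, -0.34 (SE 0.33), with -0.03, -0.21 and -0.47 on TG DSS against 0.19, -0.09 and 0.21 on TG water. Acaca had the highest difference after Pmvk, 0.31 (SE 0.18), with 0.32, 0.05 and 0.23 against 0.08, -0.20 and -0.21, so that only TG water 1 reached into the DSS range.

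TG DSS 1 stood above the other TG DSS arrays for much of the cholesterol route. Over the 17 genes from Hmgcs1 to Dhcr7, the median was 0.30 on TG DSS 1, -0.08 on TG DSS 2 and 0.10 on TG DSS 3. TG DSS 1 was the highest of all 12 arrays for 11 of the 28 genes. This count was not taken over all genes. TG DSS 1 also had the widest spread of the TG arrays over all genes, with an SD of 0.27 against 0.14 to 0.23. Lss reached 0.62 on TG DSS 1 and -0.33 on TG DSS 2, and Cyp51 0.51 and -0.12. TG DSS 1 also had the highest neutrophil median of the TG arrays, 0.71, and a fibroblast median of 0.86. The part of other cells in these values was not tested.

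**Figure D4:**
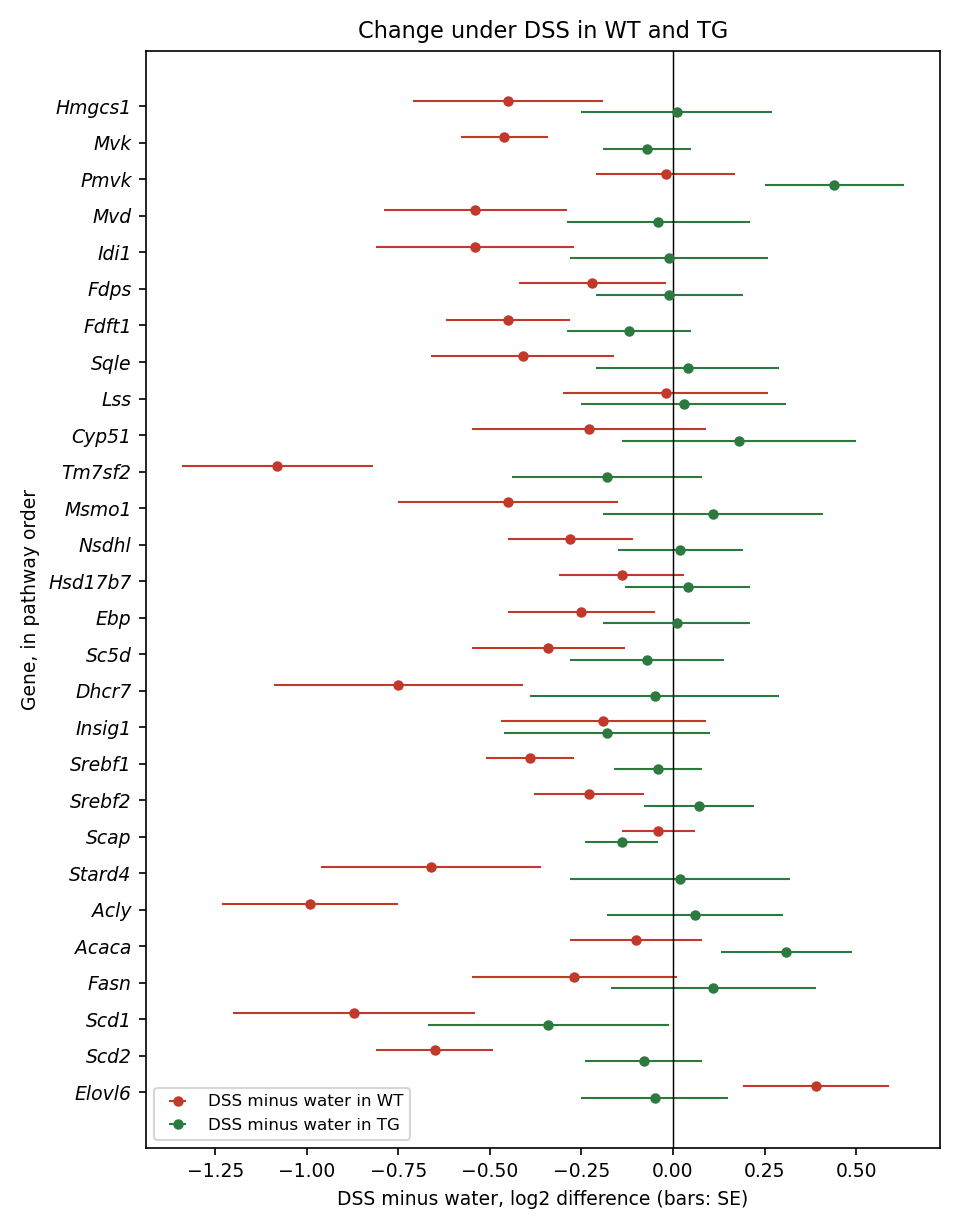
Log2 difference of DSS minus water for the 28 genes in pathway order, in WT and in TG, with bars of 1 SE from the limma fit. The WT points lie between -1.08 and 0.39 with 27 of 28 below 0, and the TG points between -0.34 and 0.44 around a median of 0.00. Over all 19935 genes, 11849 were below 0 in WT.

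On water, TG was set against WT to ask whether the transgene alone goes with a difference in these genes. Differences ran from -0.13 to 0.19, with 21 genes above and 7 below 0 and a median of 0.04, against 0.01 over all genes. Of all genes, 10902 were above and 9033 below 0. The median was 0.03 over the pan-epithelial list, -0.10 over the cell cycle list and 0.02 over the neutrophil list. Over the fibroblast and smooth muscle lists it was -0.31 and -0.43, with all 10 genes of each below 0. With limma, 0 of the 28 genes passed and 0 had an unadjusted p under 0.05, against 0% and 0.306% of all genes. No gene separated the groups, which 1.93% of all genes did upwards and 3.05% downwards. Mvk had the smallest p, with 0.18, 0.03 and 0.27 on TG water against -0.03, -0.11 and 0.12 on WT water. Only TG water 2 lay inside the WT range, and the difference was 0.17 (95% interval -0.10 to 0.43). Mvd and Sqle had the largest differences, 0.19 each (95% interval -0.37 to 0.76 for both). TG water 3 was high for several of these genes, at 0.47 for Mvd, Lss and Insig1. Hsd17b7 differed by 0.13 with that array and by -0.01 without it. Fdft1 also differed by 0.13 (SE 0.17), as did Nsdhl, whose sign turned to -0.05 with weights per array.

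Under DSS, TG was set against WT. This comparison uses the same 3 WT DSS arrays as the first, so the 2 are not independent and their values are only set side by side. Of the 28 genes, 25 were higher in TG DSS, with a median difference of 0.45, against 0.04 over all genes. Of all 19935 genes, 11534 were higher in TG DSS. The median was 0.60 over the pan-epithelial list and 0.99 over the cell cycle list. Over the fibroblast and neutrophil lists it was -0.85 and -1.91, and over the smooth muscle and adipocyte lists -0.10 and 0.00. With limma, 0 genes passed, where 0.0401% of all genes did, and 12 (42.9%) had an unadjusted p under 0.05, all higher in TG. Of all 19935 genes 15.9% had such a p in either direction, 2055 of them higher in TG and 1123 lower. All TG DSS arrays lay above all WT DSS arrays in 8 genes (28.6%), against 14.1% of all genes in that direction: Mvk, Fdft1, Tm7sf2, Hsd17b7, Dhcr7, Stard4, Acly and Scd2. No gene had them all below, which 4.9% of all genes had.

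Acly differed most, with -0.07, 0.08 and 0.31 on TG DSS against -0.33, -1.44 and -1.28 on WT DSS. The difference was 1.12 (SE 0.24, limma adjusted p = 0.113), which is 2.17-fold higher in TG. Tm7sf2 differed by 0.95 (SE 0.26, limma adjusted p = 0.147), with -0.15, -0.10 and 0.10 against -0.39, -1.70 and -0.91. For both genes the WT DSS 1 array came nearest to the TG arrays. Scd2 read -0.03, -0.03 and 0.10 against -0.15, -0.82 and -0.83, a difference of 0.61 (SE 0.16, limma adjusted p = 0.14). Mvk read 0.27, -0.05 and 0.05 against -0.29, -0.52 and -0.60, a difference of 0.56 (SE 0.12, limma adjusted p = 0.113). In Mvk all 3 WT DSS arrays were low, whereas in Scd2 only WT DSS 2 and 3 were far from the TG values. The differences of Idi1 (0.71), Mvd (0.70) and Sqle (0.64) were of like size, but WT DSS 1 overlapped with TG DSS in each. The 3 genes lower in TG were Elovl6, at -0.41 (SE 0.20), Insig1, at -0.06, and Scap, at -0.03.

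Without WT DSS 1, 7 genes passed in this comparison with limma: Mvk, Mvd, Idi1, Tm7sf2, Srebf1, Acly and Scd2, all higher in TG. Over all genes 5.85% passed in that fit in either direction, and 22.9% had an unadjusted p under 0.05, against 20 of the 28. Acly then differed by 1.46 (SE 0.12, adjusted p = 0.000397). Without WT DSS 2 the median over the 28 genes was 0.19 and 0 passed with limma, against 0.0803% of all genes, with 8 at an unadjusted p under 0.05, against 13.1%. Without WT DSS 3 the median was 0.46 and 0 passed, against 0.823% of all genes, with 11 at an unadjusted p under 0.05, against 24%.

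The interaction, which subtracts the DSS change in WT from that in TG, tests whether the genotypes differed in their change. It was above 0 for 26 of the 28 genes, with a median of 0.40, against 0.01 over all genes. Of all 19935 genes, 10409 were above 0. The median interaction was 0.65 over the pan-epithelial list and 1.02 over the cell cycle list. Over the fibroblast and neutrophil lists it was -0.60 and -1.99, and over the smooth muscle and adipocyte lists 0.33 and 0.07. With limma, 0 genes passed, against 0% of all genes, and the lowest adjusted p of the set was 0.797. At an unadjusted p under 0.05 there were 4 genes (14.3%), against 5.85% of all genes: Acly at 1.05 (SE 0.33), Tm7sf2 at 0.90 (SE 0.37), Scd2 at 0.57 (SE 0.23) and Mvk at 0.39 (SE 0.17). The 2 genes below 0 were Elovl6, at -0.44 (SE 0.29), and Scap, at -0.09 (SE 0.15). Without WT DSS 1, 2 genes passed with limma, Acly at 1.39 (adjusted p = 0.00568) and Scd2 at 0.79 (adjusted p = 0.0188). Over all genes 1.2% passed in that fit, and 11.6% had an unadjusted p under 0.05, against 12 of the 28. Without WT DSS 2 the median interaction was 0.14 and 0 of the 28 genes passed, against 0% of all genes, with 3 at an unadjusted p under 0.05, against 6.51%. Without WT DSS 3 it was 0.42 and 0 passed, against 0.0301% of all genes, with 3 at an unadjusted p under 0.05, against 11.4%.

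Other genes of lipid synthesis were taken from a list of 30 SREBP-linked and lipogenic genes, of which 26 were measured. For DSS in WT, 0 of the 26 passed with limma, and 3 higher and 5 lower had an unadjusted p under 0.05, against 5.7% higher and 9.55% lower of all genes. The median difference was -0.10. Acss2, an acetyl-CoA synthetase that feeds the same acetyl-CoA pool as Acly, read -0.95, -2.81 and -1.46 on WT DSS and -0.46, 0.00 and 0.00 on TG DSS, against 0.00 to 0.11 on WT water. Its difference in WT was -1.79 (SE 0.37, limma adjusted p = 0.0766). Fads2, a fatty acid desaturase, read -0.48, -1.43 and -1.89 on WT DSS and -0.11, 0.04 and 0.12 on TG DSS. All 3 WT DSS arrays were low for both genes, and Fads2 differed in WT by -1.28 (SE 0.27, limma adjusted p = 0.0809). Mcat, which works in mitochondrial fatty acid synthesis, differed by -0.50 (SE 0.13, limma adjusted p = 0.138). For TG against WT under DSS, the median over the 26 genes was 0.11, with 17 above and 9 below 0 (range -1.35 to 1.59). At an unadjusted p under 0.05, 6 were higher in TG and 3 lower, against 2055 higher and 1123 lower of all 19935 genes. The genes with the smallest p were higher in TG, by 1.59 for Acss2, 1.28 for Fads2 and 0.78 for Tmem97. Their limma adjusted p was 0.124, 0.113 and 0.13. Tmem97, a sterol-responsive membrane protein, read -0.32, -1.11 and -0.41 on WT DSS and 0.20, 0.20 and 0.09 on TG DSS, without overlap.

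A list of 21 genes of sterol uptake, esterification and efflux had 18 measured. For DSS in WT, 0 of the 18 passed with limma, and 3 higher and 4 lower had an unadjusted p under 0.05, against the same 5.7% and 9.55% of all genes. The median was -0.05. Abcg5 and Abcg8, the paired transporters that return sterols to the gut lumen, were low on WT DSS 2 and 3. Abcg5 read -0.13, -2.82 and -2.06 on WT DSS and Abcg8 -0.36, -2.16 and -1.66. Their TG DSS arrays lay between 0.02 and 0.10 for Abcg5 and between -0.31 and 0.15 for Abcg8. In WT the differences were -1.73 (SE 0.52) for Abcg5 and -1.49 (SE 0.38) for Abcg8, with limma adjusted p of 0.175 and 0.123. Lipa, the lysosomal acid lipase, ran the other way, with 0.23, 0.70 and 0.52 on WT DSS and -0.05, -0.10 and -0.46 on TG DSS, and its difference in WT was 0.52 (SE 0.17, limma adjusted p = 0.205).

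On water and for DSS in TG, 0 genes of both lists passed with limma. In TG, no gene of either list had an unadjusted p under 0.05, which 2.38% of all genes had. On water 1 gene did, against 0.306% of all genes: Mid1ip1, a partner of acetyl-CoA carboxylase, with a TG minus WT difference of 0.18 (SE 0.07, limma adjusted p = 1).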

How the data were processed

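The series holds 12 Affymetrix arrays, 3 in each of 4 groups taken from the labels. The deposited table gives 1 value per probe set, made with RMA in Affymetrix Expression Console per the submitters' processing notes (versions: not given in the sources used here). Since no base is named, the authors' values were read as log2, which RMA produces. Each of 28815 probe sets had a median of 0 over the arrays to within 5e-07, so the values are centred, which was found from the values and is stated by no source. Of the probe sets, 21780 had 1 gene symbol, 1605 several and 5430 none. Probe sets with 1 symbol were averaged to 19935 genes. No filter on low values was possible after centring, so the planned filter was not run.

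All 12 arrays entered 1 linear model with group means in limma 3.58.1 under R 4.3.3 (8 residual degrees of freedom, eBayes without trend). Two-sided p-values were adjusted over 19935 genes (Benjamini-Hochberg). An exact permutation test of 3 against 3 arrays cannot go below 0.1, so none was used. Scripts were tested on simulated data. Alternatives were fits to the groups compared alone, a replicate block, single probe sets, centring of arrays, robust eBayes, weights per array or per group, other thresholds and the omission of each array.

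The 28 genes and all lists were chosen with earlier results of these data known. All 28 genes could be named. Values on every array were given for up to 4 genes per comparison with the smallest p and for genes that carry a result, and from other lists up to 3 genes per comparison with the smallest p. The rule for promoters asked for those with a sterol element, which 1 gene met, so 3 genes with the smallest p and a single promoter were added. Tables and figures used Python 3.11.15, pandas 2.3.3, numpy 2.4.6 and matplotlib 3.10.9. The number of arrays limits the precision, and no array was left out of the main analysis.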

Additional observations from a re-analysis of the deposited data

How the results depend on the processing

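The set's median kept its sign in every alternative tried for DSS in WT, for TG against WT under DSS and for the interaction. The counts of all genes that passed for DSS in WT (34) and for TG against WT under DSS (8) did not hold. With only the arrays of the groups compared, with a replicate block, with weights per group or at an adjusted p under 0.01, both counts were 0. With each array centred on its median, the TG against WT count under DSS was 4, and with every probe set on its own, the DSS in WT count was 79. With weights per array, the genes passing were 754 for DSS in WT, 4 for DSS in TG, 1971 for TG against WT on water, 273 for TG against WT under DSS and 12 for the interaction. Under those weights 2 of the 28 genes passed for DSS in WT (Tm7sf2 and Scd1) and 1 on water (Insig1, -0.65), and the set's median was -0.09 for DSS in WT and 0.14 for the interaction. Leaving out 1 array at a time, all genes passing ranged from 0 to 919 for DSS in WT, from 0 to 1166 for TG against WT under DSS and from 0 to 239 for the interaction. The 28 genes gave 0 to 5, 0 to 7 and 0 to 2 in the same order, all above 0 only when a WT DSS array was left out, and their medians ran from -0.53 to -0.08 for DSS in WT and from 0.14 to 0.52 for the interaction. Of the single-gene values on which alternatives were run, 343 kept direction and call, 11 newly passed and 2 turned in sign, Hsd17b7 on water to -0.01 without TG water replicate 3 (-0.01 to 0.25 over all omissions) and Nsdhl to -0.05 with weights per array. The cause of these changes was not tested. Deviations of same-numbered arrays correlated between -0.48 and 0.38. With 3 arrays per group, these correlations cannot decide whether the replicate numbers pair samples. With the replicate block 0 of the 28 genes passed, as in the main fit. A filter on low values was not run, since centred values hold no level and no signal over background.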
